A study of Homo sapiens with 12 samples.

Results

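Polycomb repressive complex 2 (PRC2) was followed through 10 of its subunit genes in TC-71, a cell line established from a human Ewing sarcoma. The genes were taken by name: the catalytic subunits EZH1 and EZH2, the core partners EED, SUZ12, RBBP4 and RBBP7, and the accessory subunits JARID2, MTF2, PHF19 and PHF1. All 10 had an entry of their own among the 25787 entries with a gene symbol, and all 10 were among the 14225 of these that reached a mean normalised read count of 10 over the libraries and were tested.

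RNA sequencing covered 12 libraries in 4 groups of 3, called biological replicates in the labels. Wild-type cells received the solvent DMSO or the small molecule YK-4-279, for 16 h. The labels give its dose as 2 mM, a unit that is high for such a compound and could not be checked here. Other cells were transfected with a scrambled control RNA or with siDHX9 against the RNA helicase gene DHX9, in a repeated reverse transfection with Lipofectamine RNAiMAX, and were collected at 48 h. The sample protocols call the transfected RNAs siRNAs, whereas the series' design text calls them shRNAs. Every group was the same cell line, which carries the EWS-FLI1 fusion, so nothing here extends to a second Ewing sarcoma line. YK-4-279 is known as a compound that interferes with the binding of EWS-FLI1 to the DHX9 protein, also called RNA helicase A.

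PRC2 methylates lysine 27 of histone H3, a mark of silenced genes. EZH1 or EZH2 carries the methyltransferase domain but works only when bound to EED and SUZ12, and the accessory subunits steer the complex to chromatin and define its subtypes. EZH2 and EED are described targets of the E2F factors that drive entry into S phase, and EZH2 is a described target of EWS-FLI1 in Ewing sarcoma, where it helps to hold cells in an undifferentiated state.

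The promoters of the 3 subunit genes on which the comparisons below turn, EZH2, EED and SUZ12, are shown from 250 bases before to 10 bases after the RefSeq start site, 5′ to 3′ on the gene's strand, in GRCh38.p14. They lie at chr7:148884282-148884541 on the minus strand for EZH2 (the upstream one of its 2 starts), at chr11:86244503-86244762 on the plus strand for EED, and at chr17:31936757-31937016 on the plus strand for SUZ12. Capitals mark an exact match to 1 of 4 forms of the E2F motif, TTTCCCGC, TTTGCCGC, TTTCGCGC or TTTGGCGC, on either strand.
EZH2: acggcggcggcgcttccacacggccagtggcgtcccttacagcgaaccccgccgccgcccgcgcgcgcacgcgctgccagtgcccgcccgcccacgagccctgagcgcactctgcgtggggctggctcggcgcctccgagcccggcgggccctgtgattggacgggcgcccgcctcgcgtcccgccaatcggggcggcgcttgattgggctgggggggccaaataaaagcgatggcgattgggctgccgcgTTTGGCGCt
EED: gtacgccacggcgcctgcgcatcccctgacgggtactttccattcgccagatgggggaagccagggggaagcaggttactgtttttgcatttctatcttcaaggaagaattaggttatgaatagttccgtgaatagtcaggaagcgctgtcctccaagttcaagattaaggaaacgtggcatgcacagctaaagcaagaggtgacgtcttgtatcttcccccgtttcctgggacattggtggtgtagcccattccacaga
SUZ12: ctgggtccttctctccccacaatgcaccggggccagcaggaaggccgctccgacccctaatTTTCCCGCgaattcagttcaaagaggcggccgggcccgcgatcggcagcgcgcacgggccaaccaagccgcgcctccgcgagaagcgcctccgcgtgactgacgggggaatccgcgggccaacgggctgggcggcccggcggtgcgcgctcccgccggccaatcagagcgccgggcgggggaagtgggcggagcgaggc

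RefSeq promoter windows of 300 bases (250 before and 50 after the start site) were found for all 10 genes, 15 windows in all. An E2F form stood in a window of 5 of the 10 genes, namely EZH1, EZH2, SUZ12, MTF2 and PHF19, and in 5 of the 15 windows. Of all 35116 promoter windows of this length, 3.31% held one. The match began at base 2 after the start in EZH2 and at base -189 in SUZ12, and the EED window held none of the 4 forms. The RBBP7 windows held none either. Whether the matches go with the changes below was not tested. The CHR element TTTGAA, sought on both strands, was found for SUZ12 alone, in 1 of the 15 windows, against 15.2% of all windows. The CCAAT box was found for 7 of the 10 genes, in 10 of the 15 windows, against 34.6% of all windows, and 4 copies stood in the EZH2 window shown. The E2F, CHR and CCAAT matches shared no base in the 3 promoters shown. GC content ran from 52.3% in the EED window to 79.7% in the windows of the 10 genes, with a median of 58.7% over all windows. These matches are a description of letters and not of bound sites.

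Libraries held about 38569000 to 65548100 reads, judged by the step between their low values, and no 2 replicates were alike within counting error. DHX9, counted in 1 entry together with its neighbour NPL, had 32689 ± 2132 normalised reads (SD, n = 3) in the scrambled and 20608 ± 1098 in the siDHX9 libraries, 36.9% lower (log2 change -0.66 ± 0.07 SE, adjusted p = 4.54e-05; exact permutation p = 0.1, two-sided, the smallest that 3 against 3 can give). All 8 Ewing sarcoma markers were measured, among them CD99 at 22230 to 35001 and NR0B1 at 6206 to 8764 normalised reads. Their sum was 60614 to 64830 with YK-4-279 against 55474 to 57730 with DMSO. It was 52863 to 61211 with siDHX9 against 50581 to 54302 with the scrambled RNA. CD99, with a mean of 28091, holds the largest part of this sum. Of the 8 markers, 1 was called higher and 0 lower with YK-4-279 (median log2 change 0.05), beside 7.33% of all tested genes higher. With siDHX9 2 were higher and 0 lower (median 0.18), beside 8.75% higher. In the scrambled against the DMSO libraries 4 were lower and 0 higher, beside 9.22% lower. The leukocyte genes PTPRC and LYZ stayed at or under 15.1 and CD3E was at 0 in all 12 libraries, while CD68 shares an entry with the abundant EIF4A1 and could not be read. The epithelial genes EPCAM and CDH1 stayed at or under 18.0, but another of the 5 epithelial markers stood at 189 to 331. The sum of the 5 was 348 to 422 with YK-4-279 against 241 to 298 with DMSO. Of the 3 that were tested, 1 was called higher with YK-4-279 and 0 lower. The sum of 6 fibroblast markers was 2792 to 3229 in the siDHX9 and 2136 to 2731 in the scrambled libraries. COL1A2 was at or under 5.14 throughout, but the other markers were higher, 1 of them at 1287 to 2109. Of the 5 that were tested, 2 were called higher with siDHX9 and 0 lower, beside 8.75% of all tested genes higher. A ribosomal RNA entry took 8.79% ± 1.07 of the normalised total with YK-4-279, 5.19% ± 0.24 with DMSO, 4.09% ± 0.96 with the scrambled RNA and 2.71% ± 0.92 with siDHX9. The part of these marker sums and of the ribosomal share in the results below was not tested. In bulk RNA, fewer cells of a type and less RNA per cell cannot be told apart.

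The 10 genes covered a wide range of levels. Per kilobase of 1 reference transcript each (GENCODE v29), the DMSO libraries held 3879 ± 139 normalised reads of RBBP7 (SD, n = 3) and 3552 ± 27.6 of EZH2. RBBP4 at 1252 ± 75.5 and EED at 1243 ± 91.0 came next and overlapped. Below them stood PHF1 at 383 ± 67.0, MTF2 at 227 ± 9.40, PHF19 at 143 ± 19.6, SUZ12 at 103 ± 5.05, JARID2 at 43.9 ± 7.70 and EZH1 at 22.8 ± 1.405, none of them overlapping its neighbour in the DMSO libraries. EZH2 was therefore the dominant catalytic subunit transcript, with 11.3 ± 0.61 EZH1 reads per 1000 EZH2 reads before any correction for length. In other groups 3 further pairs overlapped. EZH2 and RBBP7 overlapped in the siDHX9 libraries, at 3560 to 3852 and 3489 to 3690 reads per kilobase, and MTF2 and PHF19 in the YK-4-279 libraries, at 181 to 222 and 158 to 191. SUZ12 and PHF19 overlapped in the scrambled libraries, at 111 to 160 and 118 to 137.

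The entries lie, in hg19, at chr17:40852288-40897114 for EZH1, chr7:148504464-148581441 for EZH2, chr11:85955426-85989851 for EED, chr17:30264029-30328064 for SUZ12, chr1:33116749-33151812 for RBBP4, chrX:16862773-16888534 for RBBP7, chr6:15245734-15522271 for JARID2, chr1:93544792-93604636 for MTF2, chr9:123617930-123657175 for PHF19 and chr6:33378773-33384229 for PHF1. Each count covers a whole gene, and isoforms are not separated. SUZ12 is the least certain of them, because SUZ12P1, a near-identical partial copy with its own entry, held a mean of 632 normalised reads over the 12 libraries against 452 for SUZ12, and reads can be split between them. EZH2, EED and RBBP4 overlap other entries, whose means of 14.5 to 79.3 reads were small beside 2148 to 9446 for these genes.

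Treatment with YK-4-279 lowered the transcripts of EED, EZH2 and RBBP7 among the 10 PRC2 genes. The question of this comparison was what the compound changes in Ewing sarcoma cells against its solvent. EED, the subunit that reads trimethylated lysine 27, fell 1.64-fold, EZH2, the main methyltransferase, fell 1.28-fold, and RBBP7, a histone-binding WD40 protein, fell 1.15-fold. None of the 4 accessory genes passed the test. Thus 3 of the 10 genes fell and 0 rose (limma, adjusted p under 0.05), where 6.49% of all tested genes fell and 7.33% rose, 13.8% in all. At an unadjusted p under 0.05 there were 5, all lower, where 29.5% of all tested genes reached that level in either direction.

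EED stood at 2946, 2546 and 2798 normalised reads in DMSO replicates 1 to 3 and at 1688, 1668 and 1681 with YK-4-279. The 3 treated libraries lay close together, with an SD of 10.3 reads, and far below every DMSO library. The change was -0.72 ± 0.09 on the log2 scale (SE, adjusted p = 0.000173).

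EZH2 stood at 9293, 9436 and 9390.3 normalised reads with DMSO and at 7501, 7232 and 7235 with YK-4-279. The groups did not overlap, and replicate spread was small, 0.778% of the mean with DMSO and 2.11% with the drug. The change was -0.36 ± 0.06 (log2, SE, adjusted p = 0.00203). EZH1, the paralog of weaker activity that prevails in non-dividing cells, had 99.2, 112 and 105 reads with DMSO and 67.0, 73.4 and 80.6 with YK-4-279. All 3 treated libraries lay below all 3 controls, but at this low count the difference of -0.52 ± 0.20 (log2) did not pass (adjusted p = 0.0980).

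RBBP7 stood at 9424, 8856 and 8868 normalised reads with DMSO and at 7850.4, 7888 and 7829.7 with YK-4-279, without overlap (log2 change -0.20 ± 0.06, adjusted p = 0.0373). This call was lost when any 1 of the 6 DMSO and YK-4-279 libraries was left out, with adjusted p from 0.0795 to 0.160. Its paralog RBBP4 had 10605, 9439 and 9783 reads with DMSO and 9145, 8049 and 8542 with YK-4-279, again without overlap, and a change of nearly the same size did not pass (log2 -0.21 ± 0.08, adjusted p = 0.105). Without siDHX9 replicate 2, which shares the estimate of spread, it did (adjusted p = 0.0452).

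SUZ12, the scaffold of the complex, had 453, 489.6 and 448 normalised reads with DMSO and 412, 319 and 387 with YK-4-279. The treated libraries were the lower ones, and the difference was within error (log2 -0.32 ± 0.18, adjusted p = 0.246). In total 6 of the 10 genes had every treated library below every control and none had the reverse, where 20.4% of all tested genes did so in the lower direction. The median log2 change was -0.21 over the 10 genes and 0.02 over all tested genes.

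The accessory genes gave smaller or opposite values. PHF19, a Polycomb-like protein that recognises methylated lysine 36 of histone H3, had 521, 686 and 618 normalised reads with DMSO and 723, 811 and 672 with YK-4-279, and was the only 1 of the 10 with a higher mean under the drug (log2 0.28 ± 0.15, adjusted p = 0.226). Its libraries overlapped. JARID2, which helps to recruit and activate PRC2, gave -0.03 ± 0.25 (adjusted p = 0.950), with an interval from -0.57 to 0.50. The Polycomb-like genes MTF2 and PHF1 gave -0.18 ± 0.12 and -0.17 ± 0.13 (adjusted p = 0.333 and 0.423).

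**Figure D1:**
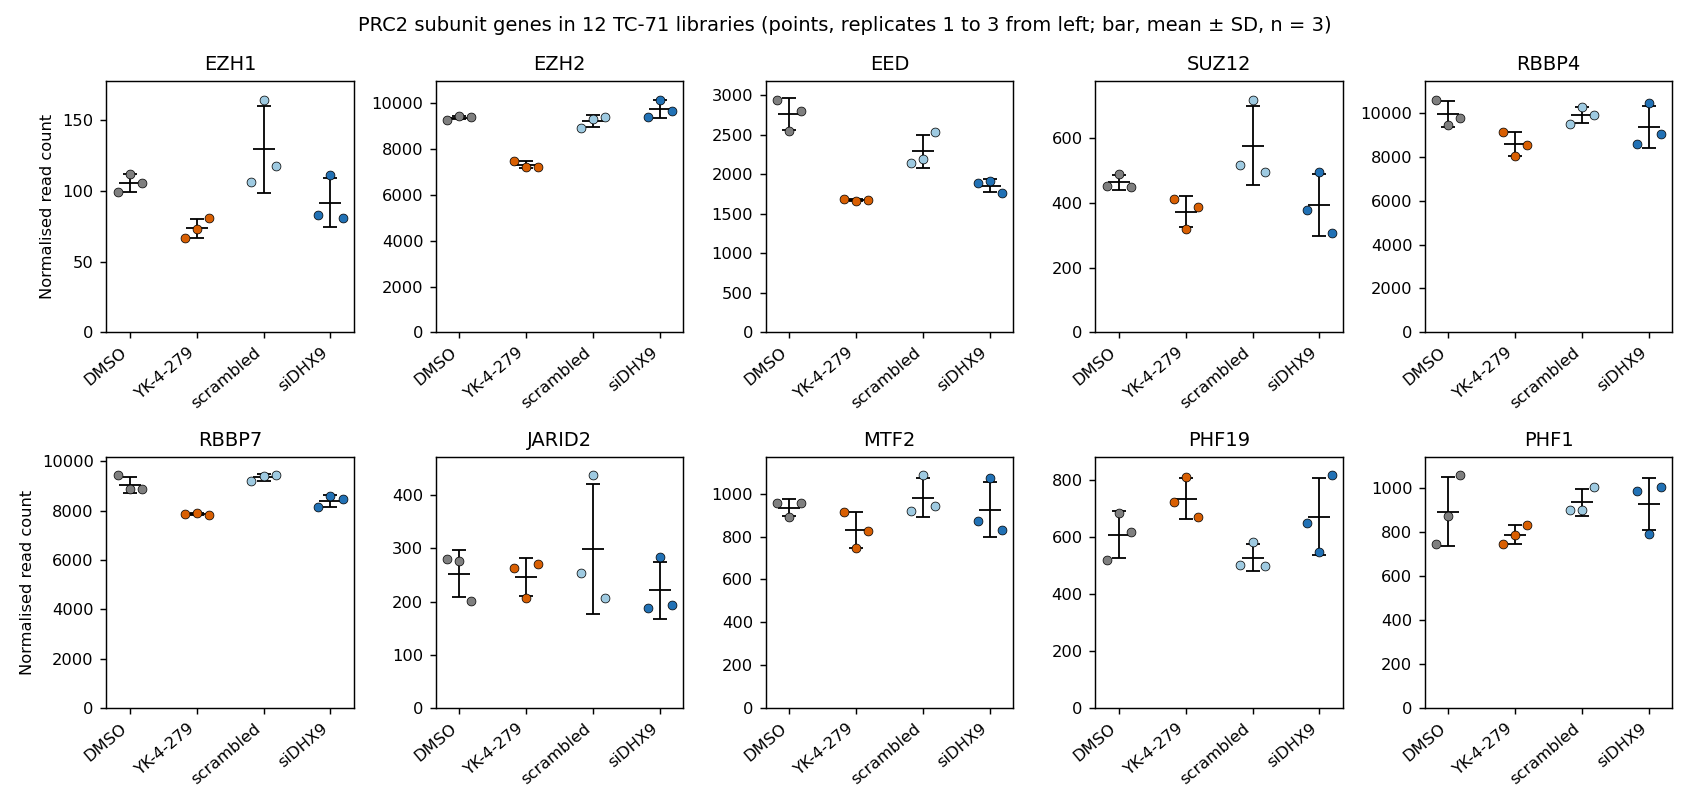
Normalised read counts (y axis, from 0, linear) of the 10 PRC2 genes in each of the 12 libraries, by group (x axis); points are replicates 1 to 3 from left to right and bars are mean ± SD, n = 3. The 3 YK-4-279 libraries of EED sit between 1668 and 1688, below all other libraries, and those of EZH2 sit between 7232 and 7501, also below all others.

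In the fit of all 12 libraries, EED and SUZ12 were called lower with knockdown of DHX9, and EZH2 showed no detected change. This comparison asked what follows from less DHX9, set against the scrambled RNA at the same time. SUZ12 fell 1.48-fold and EED fell 1.23-fold, so that 2 of the 10 genes fell and 0 rose (limma), where 7.97% of all tested genes fell and 8.75% rose, 16.7% in all. At an unadjusted p under 0.05 there were 5: EZH1, EED, SUZ12 and RBBP7 lower, PHF19 higher. Of all tested genes, 33.3% reached that level in either direction. With only the 6 libraries of this comparison, neither EED nor SUZ12 passed (limma, adjusted p = 0.146 and 0.139). Over all genes, 503 were then called.

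SUZ12 stood at 517, 719 and 497 normalised reads in scrambled replicates 1 to 3 and at 378, 495 and 306 with siDHX9. The groups did not overlap but met, at 497 for the lowest scrambled and 495 for the highest siDHX9 library, and replicate 2 was the highest of its group in both. The change was -0.56 ± 0.18 (log2, SE, adjusted p = 0.0447), with the uncertainty from SUZ12P1 given above. SUZ12P1 itself had 582, 586 and 607 normalised reads in the scrambled and 653, 631 and 604 in the siDHX9 libraries, which overlap. The SUZ12 call was lost without any 1 of DMSO 1, DMSO 2, DMSO 3, YK-4-279 1, YK-4-279 3, scrambled 1, scrambled 2, siDHX9 1 and siDHX9 3, with adjusted p from 0.0544 to 0.174, and its size was -0.39 without scrambled 2.

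EED stood at 2145, 2199 and 2534 normalised reads with the scrambled RNA and at 1888, 1916 and 1764 with siDHX9. The groups did not overlap, and the change was -0.30 ± 0.09 (log2, adjusted p = 0.0298). The call was lost without scrambled 3, siDHX9 1 or siDHX9 3, with adjusted p of 0.0751, 0.0656 and 0.0872.

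EZH2 stood at 8945, 9315 and 9420.1 normalised reads with the scrambled RNA and at 9395, 10167 and 9662 with siDHX9. The siDHX9 values were mostly the higher ones but overlapped the scrambled ones, and the difference of 0.08 ± 0.06 (log2, adjusted p = 0.391) had an interval from -0.05 to 0.21. EZH1 had 106, 165 and 118 reads with the scrambled RNA and 82.8, 112 and 81.1 with siDHX9 (log2 -0.48 ± 0.20, adjusted p = 0.105). In both groups replicate 2 was the highest, and without siDHX9 replicate 2 EZH1 passed, at -0.63 with adjusted p = 0.0391.

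RBBP7 had 9193, 9418 and 9422 normalised reads with the scrambled RNA and 8139, 8608 and 8446 with siDHX9. The groups were apart, with a log2 change of -0.15 ± 0.06 that did not pass (adjusted p = 0.0884). RBBP4 gave -0.09 ± 0.08 (adjusted p = 0.5003), with siDHX9 replicate 2 at 10453 and the other two at 8601 and 9026. In all, 3 of the 10 genes had every siDHX9 library below every scrambled library, where 14.4% of all tested genes did. The median log2 change was -0.12 over the 10 genes and 0.00 over all tested genes.

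Among the accessory genes, PHF19 had 501, 583 and 499 normalised reads with the scrambled RNA and 649, 549 and 817 with siDHX9. It was higher in 2 of the 3 siDHX9 libraries than in every scrambled library (log2 0.33 ± 0.15, adjusted p = 0.132). Without siDHX9 replicate 2, the low one, it passed at 0.47 (adjusted p = 0.0243), and then 4 of the 10 genes were called, 3 lower and 1 higher. Calls rose over all genes as well, from 2378 to 4249. Without siDHX9 1 or siDHX9 3 both calls of the full fit, EED and SUZ12, were lost. JARID2 gave -0.38 ± 0.25 (adjusted p = 0.303), MTF2 -0.09 ± 0.12 (adjusted p = 0.612) and PHF1 -0.02 ± 0.13 (adjusted p = 0.939).

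**Figure D2:**
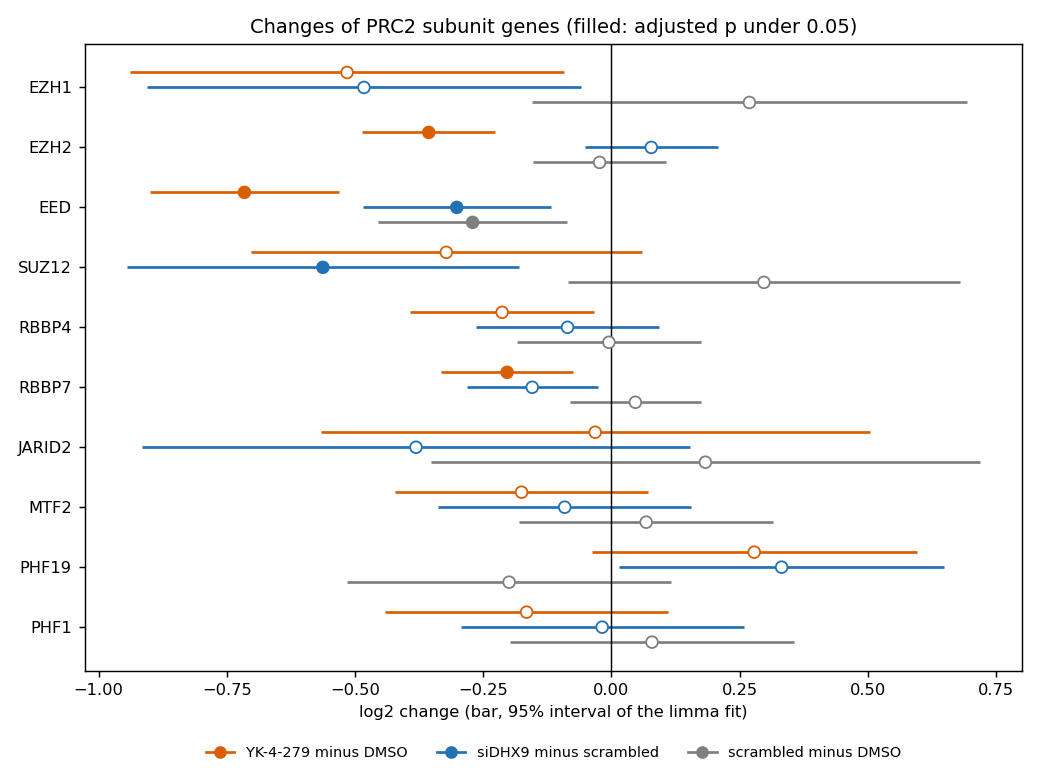
Log2 change of each gene (x axis) with its 95% interval from the limma fit, for the drug against DMSO, the knockdown against the scrambled RNA and the scrambled RNA against DMSO; filled points passed adjusted p under 0.05. EED is filled in all 3 comparisons, at -0.72, -0.30 and -0.27, whereas EZH2 is filled for the drug alone, at -0.36.

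In the fit of all 12 libraries, the drug and the knockdown differed in their effects on EZH2 and EED. The difference, the YK-4-279 change minus the siDHX9 change, was -0.43 ± 0.09 for EZH2 (log2, SE, adjusted p = 0.00715) and -0.41 ± 0.12 for EED (adjusted p = 0.0460), each lower under the drug. These were 2 of the 10 genes, where 5.29% of all tested genes were lower and 4.4% higher in this test, 9.69% in all. For EZH2 the drug change was -0.36 and the knockdown change 0.08, and for EED they were -0.72 and -0.30. Both control groups enter this difference, and EED was lower in the scrambled than in the DMSO libraries (log2 -0.27 ± 0.09, limma, adjusted p = 0.0410). Its means were 2763 with DMSO and 1679 with YK-4-279, and 2293 with the scrambled RNA and 1856 with siDHX9. The EED call was lost in 10 of the 12 fits that left out 1 library, those without DMSO 1, 2 or 3, YK-4-279 1, 2 or 3, scrambled 1 or 2, or siDHX9 1 or 2, with adjusted p from 0.0516 to 0.113. For SUZ12, which passed in the knockdown alone, the difference was 0.24 ± 0.25 (adjusted p = 0.582), with an interval from -0.30 to 0.78, so its effects were not shown to differ. The treatments also differ in time, 16 h against 48 h, and in transfection, which cannot be told apart from the agents in this test.

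The control cultures themselves differed in EED. The scrambled libraries were compared with the DMSO libraries, which shares both control groups with the comparisons above and differs in transfection and time at once. EED was lower in the scrambled libraries by 1.21-fold without overlap (log2 -0.27 ± 0.09, adjusted p = 0.0410), the only 1 of the 10 genes called, where 9.22% of all tested genes were lower and 9.7% higher, 18.9% in all. Of all tested genes, 18.8% had every scrambled library below every DMSO library. This call was lost without DMSO 1, DMSO 3, YK-4-279 1, 2 or 3, scrambled 1, scrambled 2 or siDHX9 1, with adjusted p from 0.0539 to 0.145. SUZ12 was higher in every scrambled library than in every DMSO library, as 22% of tested genes were, and did not pass (log2 0.30 ± 0.18, adjusted p = 0.257). EZH2 differed by -0.02 ± 0.06 and RBBP4 by 0.00 ± 0.08 (adjusted p = 0.827 and 0.978).

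The balance of subunits within a library was described by ratios of normalised reads. There were 29.5 ± 2.37 EED reads per 100 EZH2 reads with DMSO (SD, n = 3), from 26.98 to 31.7, and 22.9 ± 0.38 with YK-4-279, from 22.5 to 23.2. With the scrambled RNA there were 24.8 ± 1.80, from 23.6 to 26.9, and with siDHX9 19.1 ± 0.94, from 18.3 to 20.1. Each treated group thus lay below its own control without overlap, where EED was called and EZH2 was not in the knockdown, and both were called with the drug.

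PHF19 relative to EZH2 had the opposite order with the drug, in a ratio that also holds the fall of EZH2. It had 6.48 ± 0.84 reads per 100 EZH2 reads with DMSO, from 5.60 to 7.27, and 10.0 ± 1.03 with YK-4-279, from 9.29 to 11.2. With the scrambled RNA it had 5.72 ± 0.49 and with siDHX9 6.92 ± 1.53, from 5.40 to 8.46, which overlapped. SUZ12 had 4.94 ± 0.22 reads per 100 EZH2 reads with DMSO, 5.08 ± 0.59 with YK-4-279, 6.26 ± 1.29 with the scrambled RNA and 4.02 ± 0.85 with siDHX9. RBBP7 per 100 RBBP4 was nearly level, at 91.1 ± 2.51, 91.8 ± 6.08, 94.4 ± 2.57 and 90.2 ± 6.81 in the same order. No test was made on these ratios, which are built from the values above.

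**Figure D3:**
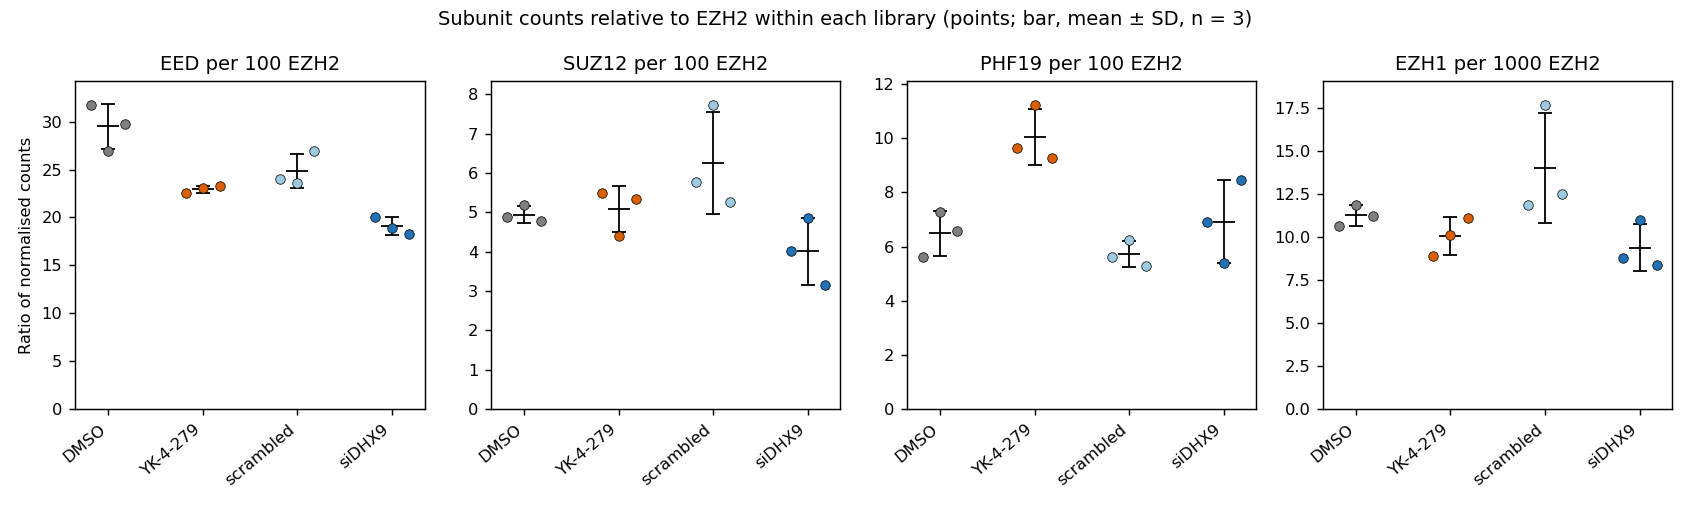
Reads of EED, SUZ12, PHF19 and EZH1 relative to EZH2 in the same library (y axis, from 0), by group; points are libraries and bars are mean ± SD, n = 3. EED per 100 EZH2 lies at 22.5 to 23.2 with YK-4-279 against 26.98 to 31.7 with DMSO, and PHF19 per 100 EZH2 at 9.29 to 11.2 against 5.60 to 7.27.

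The spread between replicates differed from gene to gene. Over the 4 groups the coefficient of variation ran from 0.374% to 3.59% for RBBP7 and from 0.778% to 4.02% for EZH2, against 14.2% to 40.8% for JARID2, 6.15% to 23.8% for EZH1 and 4.89% to 24.3% for SUZ12. JARID2 had 281, 276 and 202 normalised reads with DMSO, 263, 206 and 270.0 with YK-4-279, 253, 437 and 206.5 with the scrambled RNA and 187, 284 and 195 with siDHX9. Its highest value belonged to scrambled replicate 2, the library that was also the highest of all 12 for EZH1, SUZ12 and MTF2. MTF2 had 919, 1086 and 941 reads with the scrambled RNA and 873, 1071 and 830.0 with siDHX9. Within the siDHX9 group, replicate 2 was the highest for 8 of the 10 genes and the lowest for PHF19 and PHF1, and its ribosomal RNA entry held 1.76% of its total. The share of all tested genes highest in that library was not counted, so this is not shown to be particular to the 10 genes. Over the better-counted entries of the whole table, chi-square per degree of freedom was 70.5 and 99.3 for siDHX9 2 against siDHX9 1 and 3. It was 32.7 between siDHX9 1 and 3. With scrambled 2 and siDHX9 2 both left out, a choice made after these values were seen, 5 genes fell with YK-4-279 (EZH1 and RBBP4 in addition, adjusted p = 0.0469 and 0.0344), while genes called lower over the whole table went from 923 to 1465. In the knockdown SUZ12 and EED then stayed lower and PHF19 was higher (log2 0.54, adjusted p = 0.0151), and EED passed neither the difference of effects nor the control comparison (adjusted p = 0.0844 and 0.0834).

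**Figure D4:**
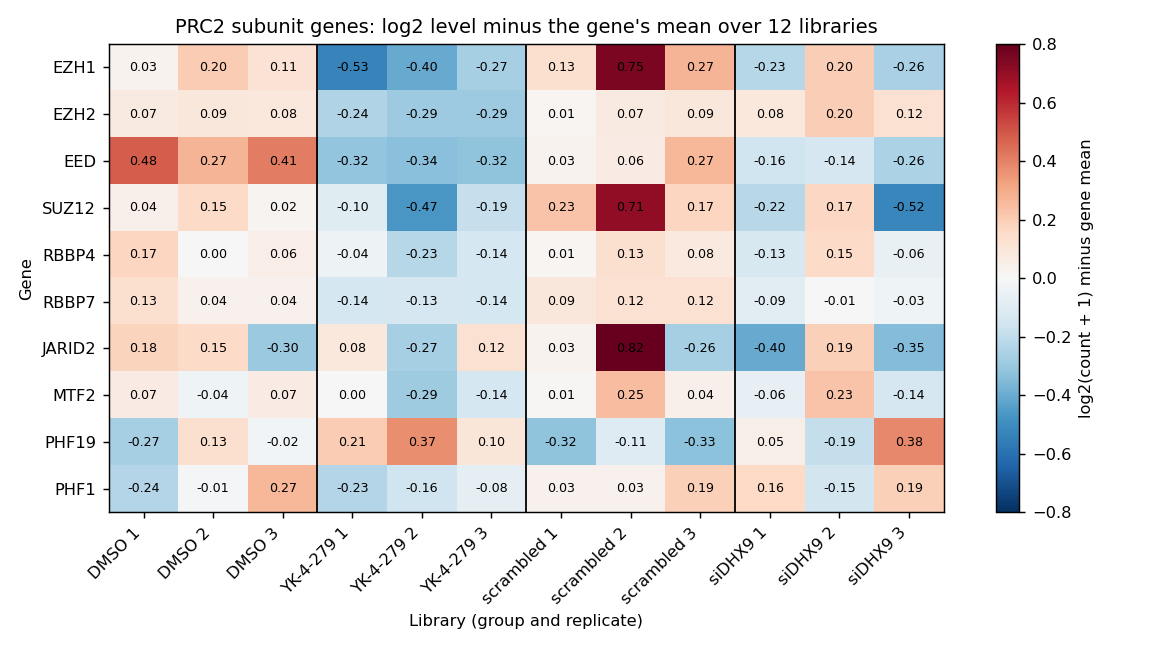
Log2(normalised count + 1) of each gene (rows) in each library (columns) minus the gene's mean over the 12 libraries, in log2 units, with the value printed in each cell; red is above and blue below the mean. Scrambled 2 stands at 0.75 for EZH1, 0.71 for SUZ12 and 0.82 for JARID2, and the YK-4-279 columns of EED and EZH2 are blue in all 3 libraries.

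The genes whose pattern was most like that of EZH2 were sought among tested entries with a mean of at least 100, by the root mean square difference of centred log2 values over the 12 libraries. Among the nearest were SH3GL3 (0.0499), an entry of NBPF8, NBPF12 and NBPF9 (0.0506), LOC100506548 (0.0535), and an entry of MSANTD3 and TMEFF1 (0.0620), beside 0.164 for EZH2 against a flat line. For example, SH3GL3 had means of 963 with DMSO, 760.0 with YK-4-279, 974 with the scrambled RNA and 1049 with siDHX9. The nearest to EZH1 were SHPRH (0.141), TEC (0.145), HAUS6 (0.150), ATP2B1 (0.153) and RACGAP1 (0.155), beside 0.340 for EZH1 against a flat line.

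Among other genes of the Polycomb system, AEBP2 fell and CBX8 rose in the knockdown. The counts for each list that follow stand beside 7.33% of all tested genes higher and 6.49% lower with YK-4-279 (13.8% called), and 8.75% higher and 7.97% lower with siDHX9 (16.7% called). Of 6 further PRC2 partners and inhibitors, 0 passed with YK-4-279 (median log2 change 0.04) and 2 fell with siDHX9 (median -0.42). AEBP2, a partner that marks the JARID2-containing subtype, fell 1.80-fold in the knockdown, from 384 ± 3.29 to 215 ± 34.9 normalised reads (SD, n = 3; log2 -0.84 ± 0.13, adjusted p = 0.000844). With the drug it was 402 ± 27.5 against 392 ± 25.2 with DMSO, and the difference of its effects was called (0.88 ± 0.18, adjusted p = 0.00812). LCOR, whose locus also encodes a PRC2-binding protein, fell with siDHX9 (-0.51 ± 0.13, adjusted p = 0.0221). EPOP, which ties PRC2 to elongin, had means of 1230 with DMSO, 1758 with YK-4-279, 860.3 with the scrambled RNA and 1418 with siDHX9, and passed in neither comparison (adjusted p = 0.146 and 0.0656).

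PRC1, the complex that ubiquitinates histone H2A, was represented by 24 genes, of which 1 rose and 0 fell with YK-4-279 (median 0.01) and 4 rose and 3 fell with siDHX9 (median -0.09), beside 13.8% and 16.7% of all tested genes called. The reader subunit CBX8 rose in the knockdown from 1078 ± 99.2 to 1801 ± 94.7 normalised reads (log2 0.74 ± 0.09, adjusted p = 0.000204). The ubiquitin ligase subunit RING1 rose with siDHX9 (0.31 ± 0.07, adjusted p = 0.0137), and PHC2 rose with YK-4-279 (0.49 ± 0.11, adjusted p = 0.0131). None of 4 demethylase and acetyltransferase genes acting on lysine 27 (KDM6A, KDM6B, EP300 and CREBBP) passed in either comparison, with medians of 0.07 and -0.28. Of the 8 PR-DUB genes 7 reached the minimum mean and were tested. Among these, the deubiquitinase BAP1 rose with the drug (0.39 ± 0.10, adjusted p = 0.0254) and 0 passed in the knockdown.

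Among 14 other histone methyltransferase genes, 1 rose with YK-4-279 (median -0.17) and 3 fell with siDHX9 (median -0.16). With the drug 7.33% of all tested genes rose, a share that 1 of 14 does not exceed, and with siDHX9 7.97% fell. EHMT2, a lysine 9 methyltransferase, rose with the drug (0.49 ± 0.13, adjusted p = 0.0260). KMT2A (-0.90 ± 0.24), EHMT1 (-0.50 ± 0.13) and NSD2 (-0.49 ± 0.15) fell with siDHX9, with adjusted p of 0.0230, 0.0241 and 0.0424. In the scrambled against the DMSO libraries EHMT1 and NSD2 were called higher (0.51 ± 0.13 and 0.55 ± 0.15, adjusted p = 0.0191 and 0.0241). EHMT1 had means of 507 with DMSO, 723 with the scrambled RNA and 508 with siDHX9, and NSD2 had 2930, 4385.5 and 3055. KMT2A had 322 ± 27.2, 384 ± 149 and 201 ± 61.4 (SD, n = 3), and its control difference was not called. RBBP4 and RBBP7 also serve NuRD, CAF-1 and SIN3, and of 18 genes of these complexes and their histone chaperone partners 3 rose and 4 fell with YK-4-279 (median -0.01), while 1 rose and 2 fell with siDHX9 (median -0.03), the latter at the 16.7% of all tested genes called and the former beside 13.8%. CHAF1B, a CAF-1 subunit, fell 1.66-fold with the drug, from 3359 ± 117 to 2029 ± 126 normalised reads (log2 -0.73 ± 0.07, adjusted p = 3.53e-05). HAT1 and MTA3 fell too (-0.41 ± 0.06 and -0.45 ± 0.08, adjusted p = 0.00101 and 0.00329), and GATAD2A rose (0.57 ± 0.11, adjusted p = 0.00396).

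E2F and G1/S genes fell in number with the drug: 14 of 25 fell and 0 rose (median -0.39), beside 6.49% of all tested genes lower, and E2F1 itself was among the 14. The list was chosen with earlier results of these data known, so its share is a description and not a test. RRM2, a subunit of ribonucleotide reductase, fell from 39685 ± 514 to 23836 ± 471 normalised reads (log2 -0.74 ± 0.07, adjusted p = 2.32e-05). The replication genes MCM4 (-0.62 ± 0.07, adjusted p = 0.000114), CDC6 (-0.81 ± 0.09, adjusted p = 0.000143) and PCNA (-0.68 ± 0.08, adjusted p = 0.000169) fell as well. With siDHX9 3 fell and 1 rose (median -0.04), beside 7.97% and 8.75% of all tested genes, and in the difference of the effects 9 were lower and 0 higher, beside 5.29% of all tested genes lower. The scrambled libraries were themselves lower than the DMSO libraries for 9 of the 25 genes and higher for 0 (median -0.14), beside 9.22% of all tested genes lower, and both control groups enter that difference. Whether the lower EZH2 and EED counts belong with these genes was not tested.

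All 31 developmental regulators listed as Polycomb-repressed genes in other cells had an entry, and 20 entries were tested. Genes under the minimum mean of 10 were left out, so the counts and medians do not cover the nearly silent ones. With YK-4-279 1 rose and 2 fell (median 0.20) and with siDHX9 2 rose and 2 fell (median 0.01). These counts are near the 13.8% and 16.7% of all tested genes called, so they show nothing about the list, and the genes below are given as single values. PAX6 fell in both comparisons, from 508 ± 76.7 to 293 ± 34.8 normalised reads with the drug (log2 -0.79 ± 0.15, adjusted p = 0.00354) and from 868 ± 148 to 595 ± 17.8 in the knockdown (-0.53 ± 0.15, adjusted p = 0.0262). NKX6-1 rose with the drug (0.61 ± 0.14, adjusted p = 0.0110). NEUROG2 rose in the knockdown from 13.8 ± 2.57 to 36.4 ± 5.90 reads (1.35 ± 0.33, adjusted p = 0.0170), and TBX2 fell from 12.5 ± 4.59 to 4.04 ± 0.34 (-1.36 ± 0.42, adjusted p = 0.0409), both at low counts. Neither the histone mark nor PRC2 protein was measured in these files, so no level of the complex is given.

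**Figure D5:**
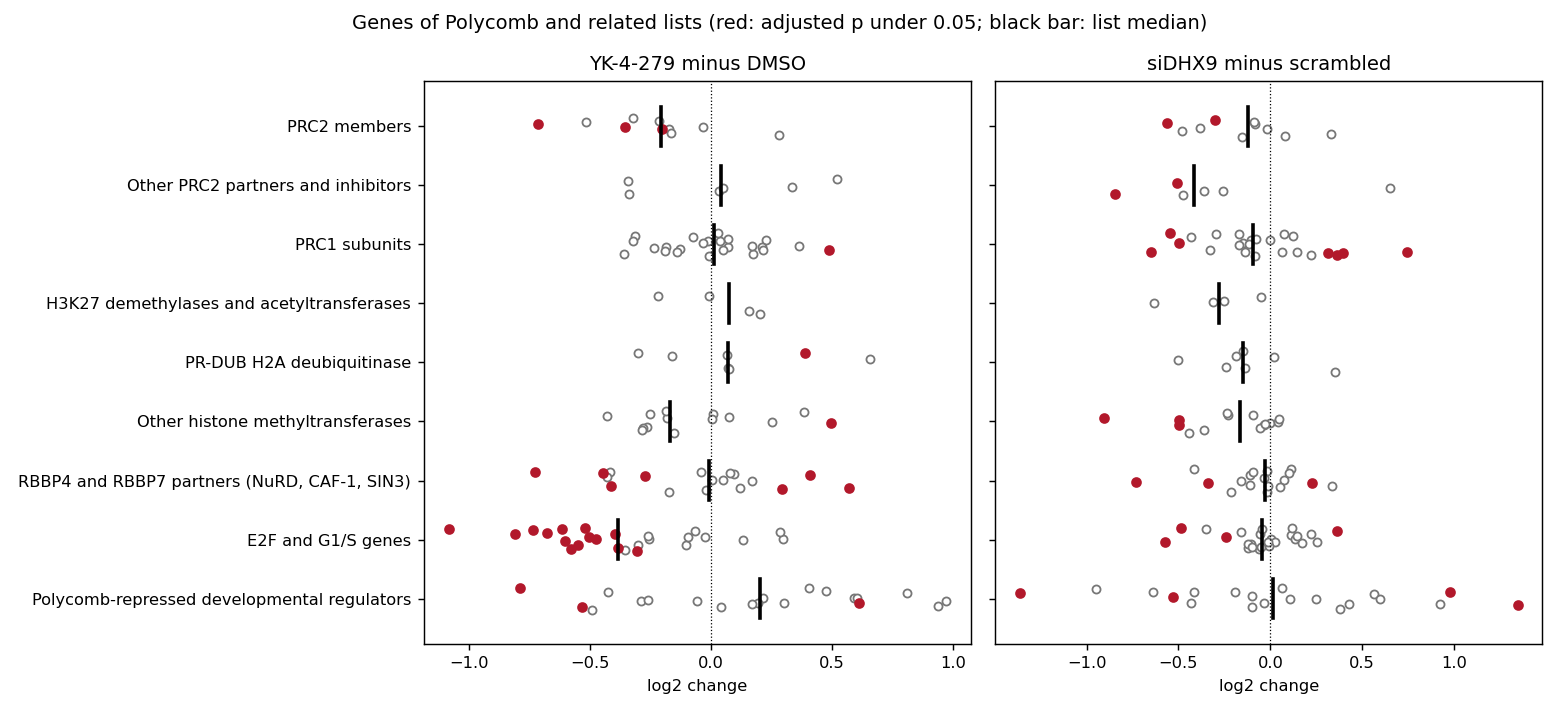
Log2 change of each measured gene (x axis; rows are spread vertically only to separate points) in the PRC2 genes and 8 related lists, for the drug against DMSO (left) and the knockdown against the scrambled RNA (right); red points passed adjusted p under 0.05 and the black bar is the list's median. The E2F and G1/S list holds 14 red points below 0 on the left and 3 on the right, and the PRC2 genes hold 3 and 2.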

How the data were processed

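RNA sequencing of 12 TC-71 libraries was analysed from 1 table of 78885 entries. Per the submitters' processing notes, reads were aligned with STAR 2.4.0 to hg19 and handled with SAMtools, Picard, FastQC and DESeq; how strand was used in counting is not stated. The authors' deposited values are a signal, read counts divided by size factors, and low values were whole multiples of a library's own step (tolerance 0.1 of a read).

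From these, log2(value + 1) of the 14225 entries with a symbol and a mean of at least 10 was fitted with limma 3.58.1 in R 4.3.3, as 4 group means estimated together from the 12 libraries (8 residual degrees of freedom), a mean-variance trend, two-sided tests and Benjamini-Hochberg adjustment over all entries. A gene is called, and said to rise or fall, at adjusted p under 0.05; fold changes are on the log2(value + 1) scale, which understates low genes. The fit was tested on simulated data in which every gene and group had the same dispersion between replicates. That simulation does not cover the wider replicate spread of the scrambled and siDHX9 libraries.

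The 10 genes, the lists and the motifs were chosen with earlier results of these data known. Named were all 10 genes, DHX9, the 5 entries nearest in pattern to EZH2 and to EZH1, and from each list at most 4 genes with the smallest adjusted p among those called; E2F1, EPOP and the demethylase and acetyltransferase genes were named after their values were seen. A few genes that this rule or the marker lists would name are not reported here. Replicate numbers were not used to pair the libraries in the fit reported. Alternatives were the added value, the minimum, TMM and quantile scaling, a replicate block, the 6 libraries of a comparison alone and leaving out each library. Promoters and their coordinates are RefSeq's on GRCh38.p14; other coordinates are the table's on hg19. Transcript lengths are GENCODE v29's, used for levels per kilobase.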

Additional observations from a re-analysis of the deposited data

Results flagged for a closer look

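The effects of YK-4-279 and of siDHX9 differed for 2 of the 10 PRC2 genes by the test of the difference itself. For EZH2 the difference was -0.43 on the log2 scale (SE 0.09, limma, adjusted p = 0.00715), with all 3 YK-4-279 libraries below all 3 DMSO libraries and siDHX9 libraries overlapping the scrambled ones; it passed in all 20 alternatives run for it, with adjusted p from 0.00497 to 0.0264. For EED the difference was -0.41 (SE 0.12, adjusted p = 0.0460), with all 3 libraries lower than their own controls in both comparisons, and it passed in 6 of 20 alternatives, with adjusted p from 0.0153 to 0.113. Both control groups enter these differences, and EED was lower in the scrambled than in the DMSO libraries (log2 -0.27, SE 0.09, limma, adjusted p = 0.0410). Time and transfection differ between the treatments and cannot be told apart from the agents.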

How the results depend on the processing

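The drug calls of EZH2 and EED passed in all 21 alternatives run (adjusted p from 0.000104 to 0.0149 and from 1.24e-05 to 0.00195). RBBP7 with the drug passed in 14 of 21, EED and SUZ12 in the knockdown in 17 and 10 of 21, and EED between controls in 9 of 21. Over 40 results of the 10 genes and 830 alternative values, 772 kept their side of the threshold, 48 lost the call, 10 gained it and 0 called values reversed. Among the 772 were 24 values that changed sign without being called on either side. Only results called in the fit reported could lose a call, and most of the 40 were not called. The DHX9 call held throughout (log2 -0.73 to -0.62). With only the 6 libraries of a comparison, 4293 genes and 5 PRC2 genes were called for the drug (1965 and 3 in the fit reported), 503 and 0 for the knockdown (2378 and 2), and 0 PRC2 genes between controls (1). With no minimum count, 1 PRC2 gene was called in the knockdown and 1 in the difference of effects; with quantile scaling, 1 in the difference and 0 between controls. Leaving out 1 library gave 858 to 2795 genes for the drug, 1241 to 4249 for the knockdown, 763 to 1885 for the difference (1379 reported) and 1432 to 3485 between controls (2692 reported), and 2 to 4, 0 to 4, 1 to 2 and 0 to 1 PRC2 genes in that order. Without scrambled 2 and siDHX9 2, added after seeing the data, 3291 genes and 5 PRC2 genes were called for the drug, 3715 and 3 for the knockdown, 1567 and 1 for the difference, and 2344 and 0 between controls. Where values moved, the cause was not tested.

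The same-numbered replicates correlated at -0.019 to 0.117 in their deviations from group means. Each siDHX9 library was closest to the scrambled library of its own number, at 0.047, 0.06 and 0.078. In the other comparisons not every library was closest to its own number. These small values do not settle whether the numbers pair the libraries. With a replicate block, 1601, 2118, 1118 and 2430 genes were called for the drug, knockdown, difference and controls, with 2, 2, 1 and 0 PRC2 genes; RBBP7 with the drug (adjusted p = 0.0677), EED in the difference (0.0727) and EED between controls (0.0629) no longer passed. The planned edgeR and DESeq2 fits were not run, so no count test was made on these scaled values. Counts of about 100 reads for EZH1 and the copy of SUZ12 limit the precision for these genes.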
